A study of Bos taurus with 16 samples.

Results

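SLC9A2, SLC9A3, SLC4A2, ATP1B1 and ATP1B3 are carriers and pump subunits that move sodium, protons and bicarbonate across the rumen wall. Members were the genes of this group with at least 1 exon row in the deposited table. That left 4 of the 5, SLC9A3, SLC4A2, ATP1B1 and ATP1B3, among 12012 genes with exon rows, and SLC9A2 was not analysed here. The samples were rumen papillae, the finger-like projections that carry the absorbing epithelium, of 16 crossbred steers aged 344 ± 48 days. They formed 4 groups of 4 animals, with 1 library per animal: high gain/high intake, high gain/low intake, low gain/high intake, and low gain/low intake. Animals were assigned by their quadrant of weight gain and dry matter intake. All ate the same ration of dry-rolled corn, wet distillers grains and alfalfa hay with free access, and none was treated. The groups are thus a selection on performance within 1 diet, not an intervention.

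The rumen epithelium takes up short-chain fatty acids from fermentation and must clear the acid that enters with them. Sodium proton exchangers of the SLC9 family return protons for sodium, and SLC9A3 (NHE3) is the form that sits on the luminal side of many absorbing epithelia. SLC4A2 (AE2) exchanges chloride for bicarbonate. The sodium potassium pump removes the sodium again on the blood side, and its beta subunits, among them ATP1B1 and ATP1B3, are needed for the catalytic alpha subunit to fold and reach the membrane.

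A level here is the mean number of reads over each base of a region, times a factor of the authors that evens out the library totals, and can be compared between genes. Each gene takes the level of its most covered exon region. Estimated depth was 11.9 to 21.2 M reads per library. All 10 epithelial markers (such as KRT5, KRT6A and DSG3) were in the table, with KRT4 at 0 in some libraries, and summed to 1721 to 5268 per library, against 16.1 to 50.4 for the 6 leukocyte markers found. In 5 libraries the first exons of long genes were poorly covered. The first-exon index, the mean log2 ratio of first-exon to other-exon coverage over 3695 genes, was -3.45 to -2.95 in these 5 and -2.37 to -1.21 in the other 11. They are replicate 4 of high gain/high intake, replicates 2, 3 and 4 of high gain/low intake, and replicate 3 of low gain/low intake. The index differed between the groups: its mean was -2.63 ± 0.67 at high gain against -1.71 ± 0.73 at low gain, and -1.93 ± 0.67 at high intake and -2.40 ± 0.94 at low intake (SD, n = 8 each). Other library measures differed by gain too. At high gain the mitochondrial share of coverage averaged 18.3 ± 6.61%, against 12.6 ± 4.39% at low gain. The exon share averaged 59.8 ± 4.99% against 65.3 ± 4.22%, and estimated depth 17.5 ± 2.40 M against 14.7 ± 1.46 M reads. Their part in the gene differences was not tested. In tissue RNA, fewer cells of a type and less RNA per cell cannot be told apart.

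SLC9A3, the luminal sodium proton exchanger, stood highest in steers that ate much and gained little. Its level is that of chr20:71758792-71762305 (UMD3.1), 3514 bases at exon 17, the last exon, which took an estimated 714 to 5769 reads per library. In high gain/high intake SLC9A3 had a coverage of 12.76, 29.08, 38.18 and 21.43. In high gain/low intake it had 26.05, 12.54, 14.35 and 12.67. In low gain/high intake it had 43.86, 57.05, 44.47 and 62.38, and in low gain/low intake 34.63, 26.63, 8.23 and 27.3. All 4 libraries of low gain/high intake lay above the other 12, while the other 3 groups overlapped one another. Of 9447 genes tested, 0.0847% had all 4 of these libraries above the other 12.

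SLC9A3 averaged 20.9 ± 9.56 at high gain, against 38.1 ± 17.6 at low gain (SD, n = 8 each), a log2 difference of -0.79 (SE 0.31). All 8 high gain libraries lay below the median of the low gain ones. It averaged 38.7 ± 17.0 at high intake, against 20.3 ± 9.46 at low intake (SD, n = 8 each), a log2 difference of 0.92 (SE 0.31). Of the 8 high intake libraries, 7 exceeded the median of the low intake ones. The shares of all genes that did the same for gain or for intake were not counted. Neither difference passed limma's test after adjustment over all genes (adjusted p = 0.847 for gain and 0.528 for intake). The interaction of gain with intake was -0.68 (adjusted p = 1.0), and -0.22 without replicate 3 of low gain/low intake. A contrast chosen after its values were seen, low gain/high intake against the other 3 groups, gave 1.37 (SE 0.35, adjusted p = 0.549).

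No gene passed the limma test for gain, intake, the interaction or that added contrast, so 0.0% of 9447 genes were called in each. At an unadjusted p under 0.05, 1 of the 4 transport genes, SLC9A3, passed for gain, where 5.29% of all genes did. SLC9A3 alone of the 4 also passed for intake, where 8.29% of all genes did, and for low gain/high intake against the rest, where 4.92% did. These p-values measure the spread between animals of a group.

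**Figure D1:**
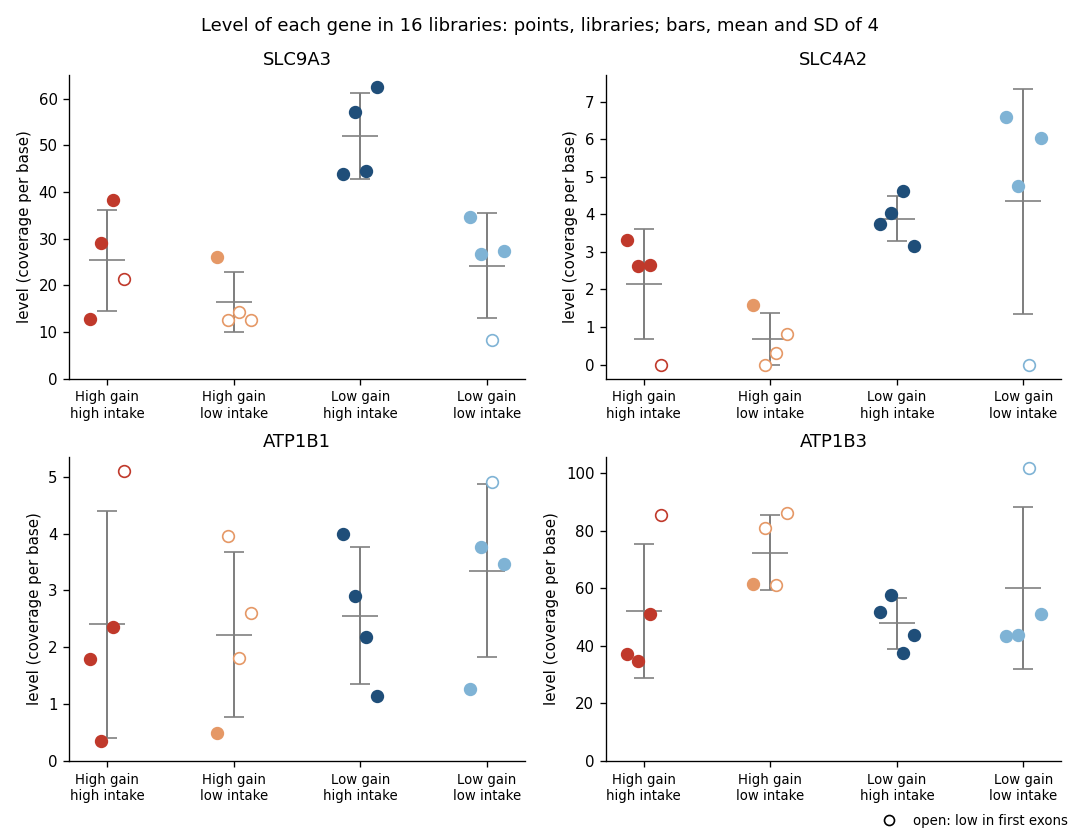
Level (mean coverage per base) of SLC9A3, SLC4A2, ATP1B1 and ATP1B3 in each of 16 libraries, by group. Bars give the mean and SD of 4 libraries, and open points mark the 5 libraries low in first exons. For SLC9A3 the 4 libraries of low gain/high intake, at 43.86 to 62.38, lie above all others, while the open points are low for SLC9A3 and SLC4A2 and high for ATP1B3.

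The 5 libraries low in first exons had 8.23 to 21.43 of SLC9A3 and the other 11 had 12.76 to 62.38. Without those 5 libraries the gain difference was -0.63 (SE 0.29), the intake difference was 0.35 (SE 0.29) and low gain/high intake stood 0.95 (SE 0.28) above the rest on the log2 scale. With the first-exon index as a covariate these became -0.24, 0.64 and 0.87. Adjusted p was between 0.419 and 0.916 in these fits. None of the 4 low gain/high intake libraries is among the 5.

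The exon regions of SLC9A3 pointed the same way along the gene. The other 7 regions had mean levels of 3.16 to 7.40, against 29.5 for the best-covered one at its last exon. All 8 regions were lower at high gain, with log2 differences of -3.01 to -0.79, where 62.5% of all 71018 exon regions tested had a lower estimate. All 8 were higher at high intake, by 0.92 to 2.17, where 53.6% of all regions had a higher estimate. Regions of 1 gene share their transcripts and are not independent, and no exon region passed the adjusted test (smallest adjusted p among the 8 regions 0.309 for gain and 0.640 for intake). Without the 5 libraries low in first exons, high gain/low intake kept 1 library. All 8 regions were still lower at high gain, from -2.53 (SE 0.46) at the first exon to -0.63, where 44305 of all 71018 exon regions were lower. The first-exon index of these 11 libraries was -2.37 to -1.67 at high gain and -1.82 to -1.21 at low gain. The gain difference at this first exon and the coverage of first exons therefore cannot be told apart here. Across all exon regions of the gene weighted by length, SLC9A3 had 18.2 to 24.3 in low gain/high intake, 4.75 to 15.3 in high gain/high intake, 3.92 to 9.59 in high gain/low intake and 2.38 to 14.3 in low gain/low intake. Low gain/high intake overlapped no other group on this measure, which includes the best-covered region. The share of all genes that do so on this measure was not counted.

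The step at the last exon of SLC9A3 differed between the sets of libraries. Its last-exon coverage was 8.38 to 372 times that of the other regions in the 5 libraries low in first exons, and 5.18 to 8.78 times in the other 11. The first exon of SLC9A3 had a coverage of 0 to 0.27 in the 5 and 0.41 to 8.90 in the 11.

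**Figure D2:**
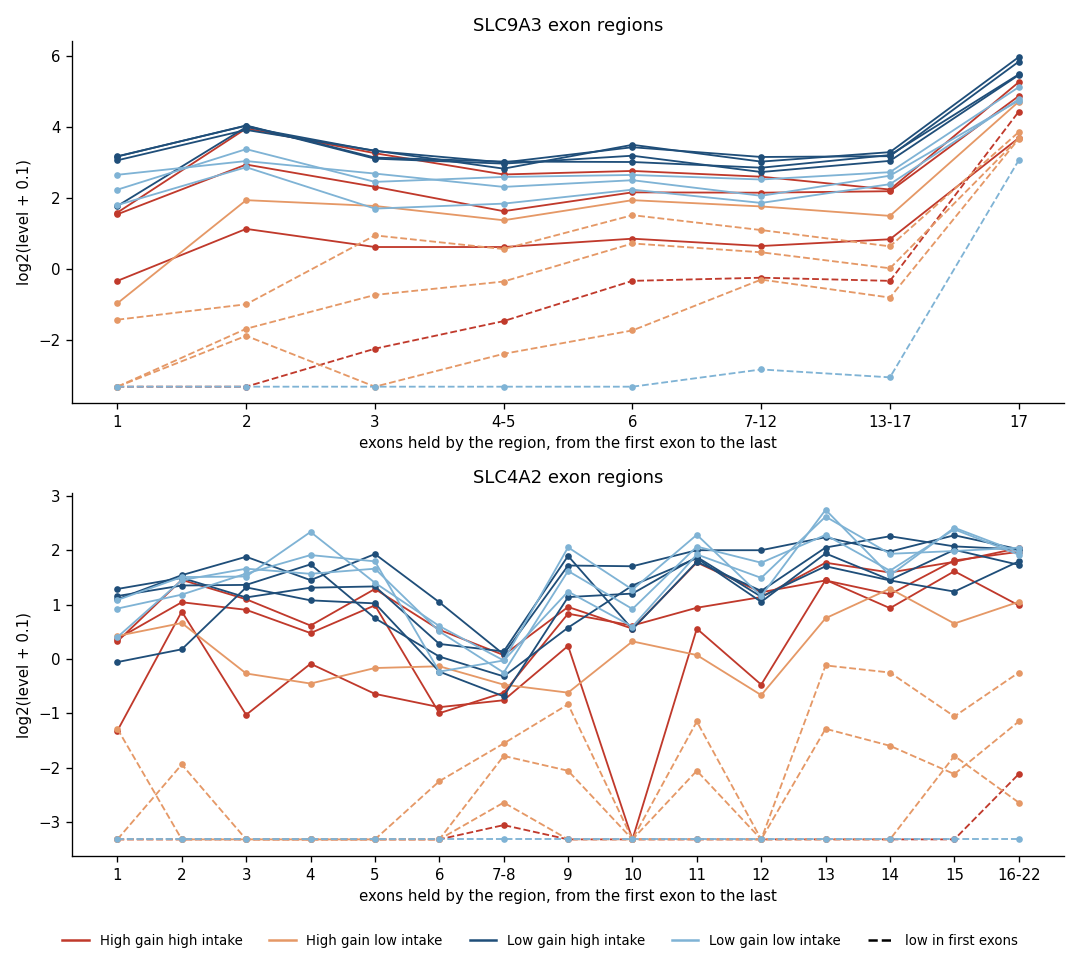
Coverage of each exon region of SLC9A3 (8 regions) and SLC4A2 (15 regions) from the first exon to the last, as log2(level + 0.1), 1 line per library. Dashed lines, the 5 libraries low in first exons, run below most of the others upstream of the last exon of SLC9A3 and along most of SLC4A2. Some lines cross: at exon 3 of SLC9A3, replicate 3 of high gain/low intake (dashed) has 1.82 and replicate 1 of high gain/high intake 1.43. The 4 dark blue lines of low gain/high intake end highest for SLC9A3.

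SLC4A2, the chloride bicarbonate exchanger, was less covered than SLC9A3 and had the highest correlation with the first-exon index. Its best-covered region is exon 13, chr4:114446824-114447041, of 218 bases and at most 36.6 estimated reads in a library. SLC4A2 had a coverage of 3.31, 2.62, 2.64 and 0 in high gain/high intake and of 1.58, 0, 0.31 and 0.82 in high gain/low intake. It had 3.74, 4.04, 4.62 and 3.16 in low gain/high intake and 6.6, 4.76, 0 and 6.04 in low gain/low intake. The 5 libraries low in first exons were the 5 lowest, at 0 to 0.82, and the other 11 had 1.58 to 6.60.

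Over 16 libraries SLC4A2 averaged 1.41 ± 1.32 at high gain, against 4.12 ± 2.02 at low gain (SD, n = 8 each). The log2 difference was -1.86 (SE 0.98, limma adjusted p = 0.847), and all 8 high gain libraries lay below the low gain median. The share of all genes with that pattern was not counted. By intake it averaged 3.02 ± 1.40 at high intake, against 2.51 ± 2.81 at low intake, a log2 difference of 1.12 (SE 0.98, limma adjusted p = 0.543). That intake difference was 0.38 without replicate 3 of low gain/low intake, 1.73 without replicate 4 of high gain/high intake and 0.12 without all 5 libraries low in first exons. A level of 0 in this short region rests on few reads, and the region of exons 16 to 22 of SLC4A2 was at 0 in 1 library.

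Without the 5 libraries low in first exons, SLC4A2 was lower at high gain: 1.58 to 3.31 in 4 high gain libraries and 3.16 to 6.60 in 7 low gain libraries. The log2 difference was -1.11 (SE 0.18, limma adjusted p = 0.0349). In that fit, chosen after the data were seen, 0.614% of 9447 genes were called lower at high gain and high gain/low intake had 1 library, which is assumed to vary like those of the other groups. The 2 sides overlapped between 3.16 and 3.31. With all 16 libraries and the first-exon index as a covariate, the estimate turned to 0.79 (SE 0.40, limma adjusted p = 0.165). Even among the 11 libraries the index was -2.37 to -1.67 at high gain and -1.82 to -1.21 at low gain, so the gain difference of SLC4A2 and coverage of first exons cannot be told apart here.

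All 15 exon regions of SLC4A2 had a lower estimate at high gain, with log2 differences of -2.60 to -0.80, where 62.5% of all exon regions did. All 15 had a higher estimate at high intake, with 0.62 to 1.69, where 53.6% of all exon regions did. Among the 11 libraries all 15 remained lower at high gain, with -1.73 to -0.31, and 3 of the 15 were called, where 1.72% of all exon regions were called lower. For intake 11 of the 15 were higher in the 11 libraries, with differences of -0.38 to 0.59, where 26105 of all 71018 exon regions were higher.

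ATP1B3 was the most covered beta subunit of the pump in these libraries. Its best-covered region, chr1:128049357-128060800, holds exons 4 to 7 with the introns between them and took 10647 to 33143 estimated reads per library. ATP1B3 had a coverage of 37.05, 34.71, 51.16 and 85.45 in high gain/high intake and 61.46, 81.09, 61.1 and 86.06 in high gain/low intake. It had 51.92, 57.81, 37.68 and 43.92 in low gain/high intake and 43.35, 43.92, 102.01 and 51.07 in low gain/low intake. All 4 high gain/low intake libraries lay above the 4 of low gain/high intake, as they did for 12.1% of all genes. The other pairs of groups overlapped, and replicate 3 of low gain/low intake was the highest library of all.

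ATP1B3 averaged 62.3 ± 20.6 at high gain, against 54.0 ± 20.4 at low gain, a log2 difference of 0.20 (SE 0.23, limma adjusted p = 0.847). It averaged 50.0 ± 16.5 at high intake, against 66.3 ± 21.4 at low intake, a log2 difference of -0.40 (SE 0.23, limma adjusted p = 0.528; SD, n = 8 each). The 5 libraries low in first exons had 61.1 to 102 and the other 11 had 34.7 to 61.5, so ATP1B3 was high in the libraries where SLC9A3 and SLC4A2 were low. With the first-exon index as a covariate the gain estimate of ATP1B3 turned to -0.35 (SE 0.15, limma adjusted p = 0.107) and the intake estimate was -0.12 (SE 0.13). The gain estimate was 0.062 without replicate 4 of high gain/high intake and 0.34 without replicate 3 of low gain/low intake. Without that last library the intake estimate was -0.26. Its exon 1 region, at a mean of 52.8, gave -1.03 for gain and 0.47 for intake, opposite in sign to the best-covered region.

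**Figure D3:**
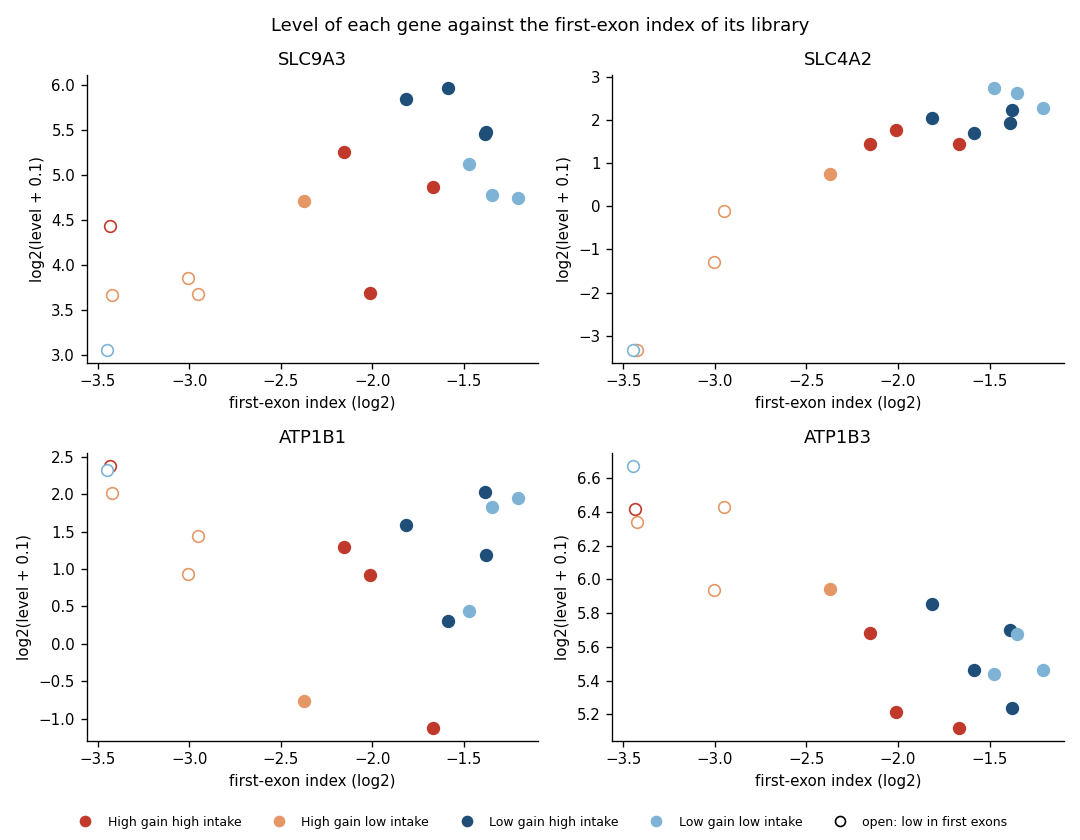
log2(level + 0.1) of the 4 genes against the first-exon index of each library (log2 ratio of first-exon to other-exon coverage), 1 point per library, coloured by group. SLC4A2 is lowest at the low end of the index, with 0 in 3 of the 5 open points, and ATP1B3 is highest there, with up to 102.01.

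ATP1B1, the other beta subunit, was low in papillae. Its best-covered own region is exon 3, chr16:37585881-37586038, with 1.99 to 22.3 estimated reads, and its long last exon shares a region with NME7 and was left out. ATP1B1 had a coverage of 1.79, 0.36, 2.35 and 5.11 in high gain/high intake and 0.49, 3.96, 1.82 and 2.61 in high gain/low intake. It had 4, 2.91, 2.18 and 1.14 in low gain/high intake and 1.26, 3.77, 4.9 and 3.47 in low gain/low intake. All 4 groups overlapped.

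ATP1B1 averaged 2.31 ± 1.62 at high gain, against 2.95 ± 1.34 at low gain, a log2 difference of -0.57 (SE 0.52, limma adjusted p = 0.847). It averaged 2.48 ± 1.53 at high intake, against 2.79 ± 1.50 at low intake, a difference of -0.20 (SE 0.52, limma adjusted p = 0.813; SD, n = 8 each). Without replicate 2 of high gain/high intake the gain difference was -0.24 and the intake estimate turned to 0.13, as it also did over all own exon regions. Without the 5 libraries low in first exons ATP1B1 gave -1.54 for gain (SE 0.56, limma adjusted p = 0.273). The level of ATP1B1 rests on 1.99 to 22.3 estimated reads per library. The region shared with NME7 had 1.3 to 5.63 in high gain/high intake, 2.42 to 5.33 in high gain/low intake, 2.25 to 3.39 in low gain/high intake and 1.9 to 8 in low gain/low intake.

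The ratio of ATP1B1 to ATP1B3 was taken within each library, after 0.1 was added to both levels, so it depends little on the library's scale factor except where ATP1B1 is low. Its log2 value averaged -5.00 ± 0.98 at high gain, against -4.23 ± 0.59 at low gain, a difference of -0.77 (exact permutation p = 0.0797, 0.159 adjusted over 2 tests). It averaged -4.51 ± 0.82 at high intake, against -4.71 ± 0.98 at low intake, a difference of 0.20 (SD, n = 8 each, exact permutation p = 0.657). ATP1B3 was thus covered more than ATP1B1 in all 16 libraries, and neither difference in the ratio passed this two-sided test.

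In descending order, the group means of SLC9A3 ran 51.9 in low gain/high intake, 25.4 in high gain/high intake, 24.2 in low gain/low intake and 16.4 in high gain/low intake. The first step had the smallest p that 4 against 4 libraries allow (exact permutation p = 0.0286, two-sided, 70 arrangements, 0.343 adjusted over 12 neighbouring pairs). The other 2 steps of SLC9A3 lay within the spread (exact permutation p = 0.886 and 0.314). For SLC4A2 the order was low gain/low intake, low gain/high intake, high gain/high intake, then high gain/low intake, with means of 4.35, 3.89, 2.14 and 0.68. ATP1B1 had the same order with means of 3.35, 2.56, 2.40 and 2.22, and ATP1B3 had 72.4 in high gain/low intake, 60.1 in low gain/low intake, 52.1 in high gain/high intake and 47.8 in low gain/high intake. No neighbouring pair of these 3 genes had an exact permutation p below 0.0571.

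**Figure D4:**
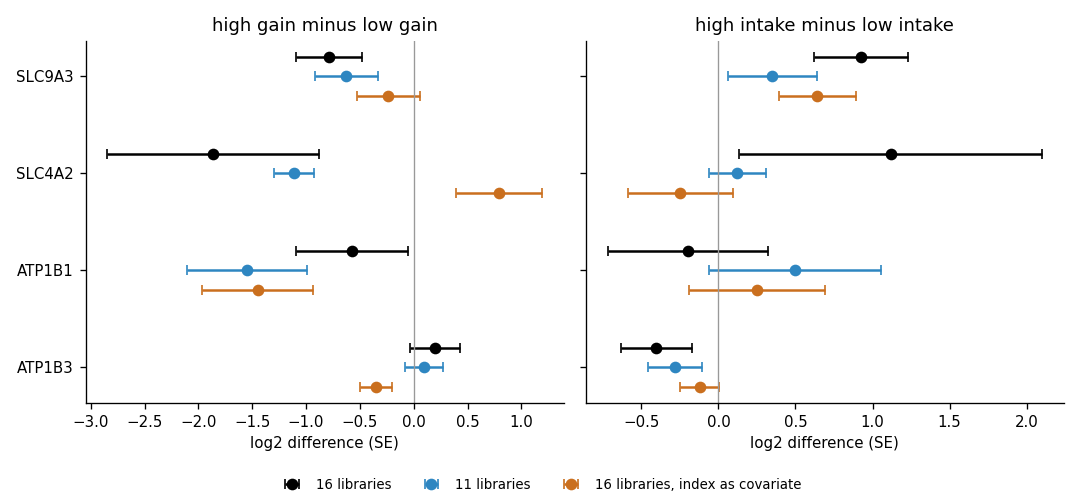
log2 differences (points) with their SE (bars) for the 4 genes by gain and by intake, from all 16 libraries, from the 11 libraries not low in first exons, and from 16 libraries with the first-exon index as a covariate. SLC9A3 keeps its sign in all 3 fits for both contrasts, while SLC4A2 by gain lies at -1.86, -1.11 and 0.79.

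Among the pump genes of a fixed list, 7 of 13 in the table could be tested. Of these, 6 were lower and 1 was higher at high gain, where 53.9% of all genes had a lower estimate. None had an unadjusted p under 0.05, and the median log2 difference was -0.57, against -0.04 for all genes. By intake 5 were higher and 2 lower, where 4682 of all 9447 genes were higher. The median was 0.43, against -0.01 for all genes. The shares and medians of all genes are the same for the lists that follow. FXYD3, a small regulator of the pump, had 7.37 to 34.2 and gave -0.35 (SE 0.32) for gain and 0.43 (SE 0.32) for intake. ATP1B2, a further beta subunit, stayed under the filter at a mean of 0.17.

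Of the list of sodium proton exchangers and their partners, 10 of 13 genes could be tested. For gain 6 were lower and 4 higher, with a median of -0.12. At an unadjusted p under 0.05 there were 3 (SLC9A3, SLC9A3R1 and CHP1), where 5.29% of all genes were, and none passed after adjustment. For intake 4 were higher and 6 lower, with a median of -0.11. Only SLC9A3 had an unadjusted p under 0.05 for intake, as did 8.29% of all genes. CHP1, a calcium-binding cofactor of these exchangers, listed under its older symbol CHP, gave 0.40 (SE 0.17) for gain.

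SLC9A3R1 (NHERF1), a scaffold that binds SLC9A3 under the membrane, had the largest gain difference of its list in size. It had a coverage of 7.9, 17.37, 9.74 and 0.16 in high gain/high intake and 6.94, 0.21, 0.21 and 0.3 in high gain/low intake. It had 42.38, 16.28, 37.05 and 43.86 in low gain/high intake and 39.7, 57.18, 0 and 53.37 in low gain/low intake. The log2 difference by gain was -3.39 (SE 1.33, limma adjusted p = 0.847), and the 5 lowest libraries were those low in first exons. Without these 5 libraries, which left 1 in high gain/low intake, the log2 difference of SLC9A3R1 by gain was -2.19 (SE 0.33). It had 6.94 to 17.37 in 4 high gain libraries and 16.28 to 57.18 in 7 low gain libraries. The first-exon index was -2.37 to -1.67 in those 4 and -1.82 to -1.21 in those 7, so the 2 differences cannot be told apart. With the index as a covariate the estimate was 0.31 (SE 0.39, limma adjusted p = 0.575). SLC9A3R2 (NHERF2), a related scaffold, gave -1.07 (SE 0.51) for gain. EZR, which ties such scaffolds to actin, gave -0.49 for low gain/high intake against the other 3 groups.

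Of the bicarbonate and anion exchangers, 8 of 13 genes in the table could be tested. For gain 4 were higher and 4 lower, none at an unadjusted p under 0.05, with a median of -0.06. For intake 4 were higher and 4 lower, with a median of 0.20, and 3 had an unadjusted p under 0.05, where 8.29% of all genes did. These 3 were SLC4A11 at 1.21 (SE 0.43), SLC26A2, a sulfate carrier, at -0.98 (SE 0.33) and SLC26A11 at 0.54 (SE 0.18), none passing after adjustment. SLC26A3, a chloride bicarbonate exchanger of absorbing epithelia, had 6.15 to 35.9 and gave -0.51 (SE 0.28) for intake. SLC4A4 stayed under the filter at a mean of 0.20, and SLC4A7 had 0.39 to 2.75.

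SLC26A3 also had the smallest unadjusted p of its list for the interaction. It had a coverage of 6.15 to 16.16 in high gain/high intake, 17.2 to 35.9 in high gain/low intake, 14.45 to 31.17 in low gain/high intake and 9.15 to 23.04 in low gain/low intake. The interaction estimate of SLC26A3 was -1.66 (SE 0.56, limma adjusted p = 1.0). Its high gain/high intake libraries lay below all of high gain/low intake, as 1.22% of all genes did, and the low gain groups overlapped.

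Of the carbonic anhydrase genes, whose active enzymes supply bicarbonate and protons, 6 of 11 could be tested. CA1 was by far the most covered gene of these lists, with 645 to 3606, and gave 0.24 (SE 0.32) for gain and -0.50 (SE 0.32) for intake. For gain 4 were higher and 2 lower, none at an unadjusted p under 0.05, with a median of 0.14. For intake 2 were higher and 4 lower, with a median of -0.33. CA8 gave -1.18 (SE 0.30) and CA5B, a mitochondrial form, -1.27 (SE 0.43). Both had an unadjusted p under 0.05, as did 8.29% of all genes, and neither passed after adjustment. CA8 was low, at 0.13 to 1.59. It met the filter of at least 0.5 in at least 4 libraries only because of its low intake libraries. Its p therefore cannot serve as a test of intake. CA2 stayed under the filter at a mean of 0.23.

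Of the sodium, potassium and chloride paths and their kinases, 12 of 17 genes could be tested. For gain 3 were higher and 9 lower, with a median of -0.56, where 53.9% of all genes were lower. For intake 7 were higher and 5 lower, with a median of 0.16. KCNQ1, a potassium channel subunit, was the 1 gene at an unadjusted p under 0.05 for gain, where 5.29% of all genes were, at -1.82 (SE 0.57). It was at 0 in 7 of 8 high gain libraries, but its highest level was 0.76. Only low gain libraries had the 0.5 that the filter asks for, so this p cannot serve as a test of gain. SCNN1A, the alpha subunit of the epithelial sodium channel, had 0.24 to 12.9 and gave 0.89 (SE 0.62) for intake. SLC12A2 stayed under the filter at a mean of 0.24.

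**Figure D5:**
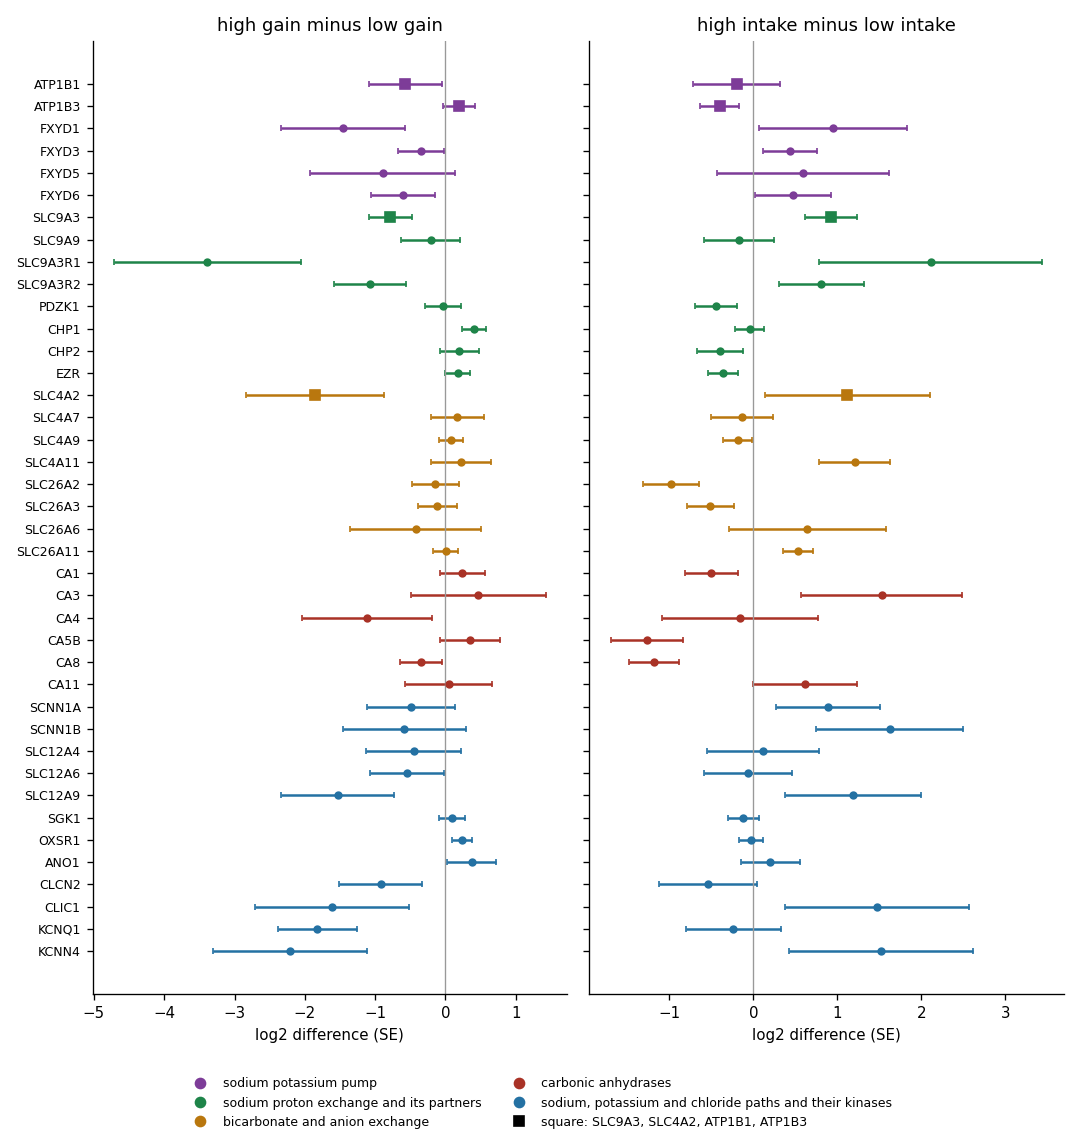
log2 differences (points) with their SE (bars) for tested genes of the 5 transport lists, by gain and by intake, coloured by list, with the 4 described genes as squares. The widest bars belong to genes such as SLC9A3R1, at -3.39 for gain with an SE of 1.33, and none of the genes shown passed the adjusted test.

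Markers of some other cells also had lower estimates at high gain, with no gene passing the adjusted test. Of the 5 leukocyte markers tested, 3 were higher and 2 lower at high gain, with a median of 0.11. Of the 10 epithelial markers, 7 were higher and 3 lower, with a median of 0.25. All 7 smooth muscle, all 6 endothelial and all 6 fibroblast and matrix markers had lower estimates at high gain, where 53.9% of all genes did, with medians of -1.65, -1.44 and -0.46. The smooth muscle sum was 2.89 to 42.3 at high gain and 4.07 to 105 at low gain, and the endothelial sum 4.46 to 17.0 at high gain and 8.22 to 27.7 at low gain. In the 5 libraries low in first exons the smooth muscle sum was 2.89 to 21.8 and the endothelial sum 4.46 to 10.3, against 9.52 to 105 and 8.34 to 27.7 in the other 11. The fibroblast and matrix sum was 229 to 1078 there (median 260), against 187 to 424 in the other 11 (median 289). No marker of these lists was at 0 in every library. Smooth muscle markers summed to 35.5 to 44.6 in low gain/high intake and 2.89 to 105 in the other 3 groups, and epithelial markers to 2848 to 3649 in low gain/high intake and 1721 to 5268 in the others. Their part in the differences of the transport genes was not tested.

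The 4 genes differed in their correlation with the first-exon index. Over the 16 libraries, which share their scaling, SLC4A2 correlated with the first-exon index at Pearson r = 0.95, SLC9A3 at 0.74, ATP1B1 at -0.29 and ATP1B3 at -0.85. Over all 9447 genes, 71.8% had a correlation with the index beyond 0.5 in either direction. SLC4A2 and SLC9A3 correlated at 0.70 over 16 libraries and at 0.11 over the 11, and SLC4A2 and ATP1B3 at -0.83 and -0.22. Within the 11 libraries the correlation with the index was 0.80 for SLC4A2, 0.25 for SLC9A3, 0.48 for ATP1B1 and -0.35 for ATP1B3.

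The tested genes most like SLC9A3 over the 16 libraries were SEMA4D, TXNRD2 and BNIPL, at Pearson r of 0.88, 0.88 and 0.87, which became 0.66, 0.70 and 0.69 over the 11 libraries. For SLC4A2 they were PSMD9, MRPL11 and HSPBP1 at 0.99 each, and 1786 genes exceeded 0.9. For ATP1B1 they were NBAS, BIRC3 and TMLHE at 0.88, 0.80 and 0.80. For ATP1B3 they were RNF7, APOOL and NSUN4 at 0.97, 0.96 and 0.96, with 142 genes over 0.9. RNF7 lies 2 genes away from ATP1B3 on the same chromosome in the RefSeq table of ARS-UCD2.0.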

How the data were processed

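Per the labels' protocols, polyadenylated RNA was read as single 50-base reads. The submitters' processing notes name TopHat2 2.08b and the genome build UMD3.1. How coverage was computed, the annotation and strand handling are not given in the sources used. The deposited signal is mean coverage per base times 1 factor per library, which was read from the values. Summed over bases it came to 591.1 to 595.9 Mb per library, and depth was estimated from the value of 1 read.

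Of 113576 exon regions, 523 that hold exons of more than 1 gene were dropped. A gene's level is that of its exon region with the highest mean. Genes with at least 0.5 in at least 4 libraries (9447 of 12012, all 4 members) were fitted as log2(value + 0.1) on 4 group means with limma 3.58.1 (R 4.3.3, eBayes, trend and robust on), two-sided, with Benjamini-Hochberg adjustment over all genes and a threshold of 0.05. Fold changes of low genes are understated on this scale. The fit was tested on simulated data. Exact permutation tests used 12870 arrangements for 8 against 8. Ratios of SLC9A2 could not be given.

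The members, lists and tests were chosen with earlier results of these data known. The text names the members, fixed partners, up to 3 genes per list and contrast with the smallest unadjusted p, and 3 genes per member by Pearson r. List genes missing under their symbol were sought under RefSeq synonyms. The alternatives were the pseudocount, the filter, the exon regions used, size factors, limma options and left-out libraries. The first-exon fits and the contrast of low gain/high intake were added after seeing the data. Some list genes are not reported here and stay in the counts.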

Additional observations from a re-analysis of the deposited data

Results flagged for a closer look

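Dixon's test flagged 2 of the 16 groups of 4 looked at, where chance flags about 1 in 20. Replicate 1 of high gain/low intake had 26.05 of SLC9A3, far above the 12.54 to 14.35 of the other 3, which are all libraries low in first exons. Replicate 3 of low gain/low intake had 102.01 of ATP1B3, against 43.35 to 51.07 in the other 3, and is the library of that group low in first exons.

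Coverage also appeared outside the annotated exons of ATP1B1. Between its exons 3 and 4, an intergenic region at chr16:37587768-37587992 had a mean level of 2.42 over 16 libraries, against 0.667 for a count of 3 reads. A second one at chr16:37591312-37591440 had 1.65, against 1.16 for 3 reads, and was at 0 in 1 library. ATP1B1 exon 3 had a mean of 2.63. No comparison of groups was made for them.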

How the results depend on the processing

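No paired analysis was possible because no number in the labels links animals of different groups. The intake and gain estimates of SLC9A3 kept their sign in every alternative run. SLC9A3 by intake (log2 difference 0.92) had an unadjusted exact permutation p of 0.0287 and an unadjusted limma p of 0.0090, and passed in no adjusted fit. The cause was not tested for any of the changes that follow. Without the 5 libraries low in first exons, 58 genes and 1224 exon regions were called for gain, SLC4A2 by gain was -1.11 and passed, and ATP1B1 by intake turned to 0.50. With the first-exon index as a covariate 1692 genes were called for gain. There SLC4A2 turned to 0.79 by gain, -0.25 by intake, -0.41 for the interaction and -0.55 for low gain/high intake against the rest. ATP1B1 by intake turned to 0.25, and ATP1B3 to -0.35 by gain and 0.19 for low gain/high intake against the rest. The length-weighted mean called 2 genes for intake and turned ATP1B1 by intake to 0.13. Median-ratio size factors left 2 neighbouring pairs of groups at an unadjusted exact permutation p under 0.05, against 1, and shifted the median of all genes by up to 0.10.

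Leaving out 1 library gave 0 to 58 genes for gain, 0 to 1 for intake and 0 to 1 for low gain/high intake, 0 to 7536 exon regions for gain and 0 to 3 for intake, and 0 to 2 neighbouring pairs. The 58 genes and 7536 regions came without replicate 3 of low gain/low intake. The ranges were -0.35 to 1.90 for the interaction of SLC4A2 and -0.082 to 0.45 for the ratio of ATP1B1 to ATP1B3 by intake. For ATP1B1 they were -0.48 to 0.13 by intake, -0.24 to 0.98 for the interaction and -0.11 to 0.47 for low gain/high intake. The depth limits the best-covered own regions of SLC4A2 and ATP1B1, which hold at most 36.6 and 22.3 estimated reads. The longer region of exons 16 to 22 of SLC4A2 held up to 387.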
